A study of Mus musculus with 6 samples.

Results

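Aquaporins are membrane channels that let water cross cells along an osmotic gradient, and 5 of them, Aqp1, Aqp3, Aqp4, Aqp5 and Aqp11, were followed in mouse corneas after a blast. They were taken by gene symbol, and all 5 were found among the 22007 gene symbols of the count tables. The list was set with earlier results of these data known, so it is not a set blind to the values. The groups were open-field blast injury (OFBI) and Naive. OFBI corneas came from male C57BL/6J mice, awake at the blast, that stood 3 m from 350 g of C-4, a plastic explosive, when it was detonated in the open, with tissue taken 12 months later. Naive corneas came from male C57BL/6J mice that carry the same 12-month label, and the sources give neither the age of the animals nor any sham handling. Each group had 3 libraries of total RNA, each made from a pool of corneas, and all 6 carry batch number 4. The number of corneas in a pool is not given, so the p-values below measure the spread between pools.

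The cornea stays clear because its stroma is held at a low water content. An outer epithelium seals the surface, keratocytes maintain the stroma between, and an inner endothelium pumps ions and fluid out of it. Aquaporins divide this tissue between them: Aqp5 and Aqp3 are known as the channels of the epithelium and Aqp1 as that of keratocytes and endothelium. Aqp3 also carries glycerol and is therefore called an aquaglyceroporin. Aqp4 is known mainly from astrocytes and the Mueller glia of the retina, and Aqp11 is a distant member of the family that sits in membranes inside the cell.

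After OFBI, Aqp3 RNA was 2.13-fold higher than in Naive corneas and Aqp1 RNA was 1.74-fold lower. The epithelial partner of Aqp3, Aqp5, was of similar abundance but was not called different. Aqp4 and Aqp11 were close to the detection limit in the OFBI libraries and were not called either. Thus 1 of 5 aquaporins was called higher, where 8.41% of the 13941 genes tested were, and 1 of 5 was called lower, where 10.4% of the genes tested were (quasi-likelihood test of edgeR, p adjusted by Benjamini-Hochberg and below 0.05). Calls in either direction made up 18.8% of the genes tested. These shares are the background for the gene lists below as well. The median log2 fold change of the 5 was 0.43, beside -0.20 over all genes tested. All 5 passed the filter on low counts, Aqp4 by its Naive counts. For 3 of the 5 no OFBI value lay within the Naive range or the reverse, with OFBI higher for Aqp3 and lower for Aqp1 and Aqp4. Among the genes tested, 46.4% were free of overlap, 16.4% with OFBI higher and 29.9% with OFBI lower.

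The stretch before the start of transcription is shown for the pair of aquaporins whose RNA was called in opposite directions. Each is 120 bases of the RefSeq promoter on GRCm38.p6, 5′ to 3′ on the strand of the gene, at chr4:41098184-41098303 for Aqp3 (minus strand) and chr6:55336179-55336298 for Aqp1 (plus strand), whose RefSeq start lies upstream of the GENCODE one. Capitals mark exact matches to TATAAA (the TATA box), GGGCGG (the GC box bound by Sp1) or CACCC (a core of Klf factor sites), on either strand, so that a reverse match reads CCGCCC or GGGTG.
Aqp3: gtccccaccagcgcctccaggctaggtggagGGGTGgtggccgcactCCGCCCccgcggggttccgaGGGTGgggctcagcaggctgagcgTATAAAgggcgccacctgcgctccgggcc
Aqp1: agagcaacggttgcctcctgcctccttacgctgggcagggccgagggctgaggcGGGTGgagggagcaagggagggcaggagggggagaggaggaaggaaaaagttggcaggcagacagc
The Aqp3 window holds 1 TATAAA, from -29 to -24 before the start, 1 GGGCGG and 2 CACCC, all but the first on the reverse strand. The Aqp1 window holds 1 CACCC and neither of the other motifs. Of 32851 RefSeq promoters, windows of the same length hold TATAAA in 6.34%, GGGCGG in 26.5% and CACCC in 31.7%. CCAAT and TGGAAA were searched as well, on both strands, and are in neither window; 21.3% and 8.29% of the promoters hold them. These matches describe letters only, and no binding was measured.

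The depth of the libraries followed the groups. The OFBI libraries held 1173472 to 3410476 estimated counts and the Naive libraries 41971752 to 47809779. About 4 deposited counts stand for 1 sequenced fragment, as inferred from the values. At that rate 1 fragment is worth 1.24, 1.28 and 3.74 CPM (counts per 1e+06 counts of the library, TMM-scaled) in OFBI replicates 1, 2 and 3 and 0.0790 to 0.0881 CPM in the Naive libraries. In log2 CPM over genes, the Naive libraries correlated at 0.982 to 0.988 with each other and the OFBI libraries at 0.758 to 0.846. Between the groups the correlations were 0.744 to 0.861, so the OFBI libraries were about as like the Naive ones as each other. The keratin gene Krt12, the hallmark of corneal epithelium, was the gene with the highest mean CPM of all. Corneal epithelium was thus present, which does not show that other tissue was absent. The parts that depth and group play in a difference cannot be told apart in this design.

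Aqp3, the glycerol-carrying channel of the epithelium (chromosome 4, 41092722 to 41098183, minus strand, GRCm38, GENCODE M21), was counted 11993, 11632 and 3291 times in OFBI replicates 1 to 3 and 83673, 78527 and 71906 times in Naive replicates 1 to 3. Scaled for depth, its level was 3707, 3724 and 3078 CPM after OFBI and 1653, 1693 and 1584 CPM in Naive corneas. Every OFBI library thus lay above every Naive library, and the lowest of the OFBI values came from the shallowest library. The means were 3503 ± 368 and 1643 ± 55.2 CPM (SD, n = 3 each). The log2 fold change was 1.09 with an SE of 0.12 and a 95% interval of 0.80 to 1.39 (edgeR adjusted p = 0.00738). Its fold change was higher than that of 90.2% of the genes tested. The call was lost when Naive replicate 2 was left out (log2 fold change 1.15, edgeR adjusted p = 0.0564).

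Markers of corneal epithelium went in both directions. Of 15 such genes, all tested, 5 were called higher (Krt12, Krt5, Krt14, Klf5 and Cldn7) and 2 lower (Cdh1 and Slurp1), with a median log2 fold change of 0.25. The summed level of the list, led by Krt12 and Krt5, was 65984 to 83744 CPM after OFBI and 36136 to 37583 CPM in Naive corneas. Krt12 alone rose from 9999 ± 1117 to 25571 ± 2985 CPM (SD, n = 3, log2 fold change 1.36, edgeR adjusted p = 0.00666). Genes of other surface epithelia were looked at too. Of 6 tested conjunctival genes, 2 were higher (Krt13 and Krt4) and 1 lower (Agr2). The 9 listed summed to 4128 to 5582 CPM after OFBI and 1830 to 1898 CPM in Naive corneas. The goblet cell genes Muc5ac, Agr2, Spdef and Tff1 were at 0 in all OFBI libraries. At 1.34 CPM in Naive corneas, Agr2 lay under 1.62 CPM, the level of 3 fragments over the OFBI group. Genes of skin keratinocytes, in which Aqp3 is also abundant, summed to 0 to 18.5 CPM after OFBI and 23.0 to 30.8 CPM in Naive corneas, with 0 of 5 tested called in either direction. The part of conjunctiva in the rise of Aqp3 was not tested. In a pool of whole corneas, a change in the number of cells of a type and a change of the RNA per cell cannot be told apart.

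Aqp5, the water channel of the epithelial surface and of tear and salivary glands (chromosome 15, 99590782 to 99594829, plus strand), was in place 18 of all genes tested by mean CPM over the 6 libraries, and Aqp3 in place 23. Its counts were 8975, 14000 and 2770 after OFBI and 142644, 91307 and 113618 in Naive corneas, equal to 2774.5, 4482 and 2591 CPM and to 2818, 1969 and 2503 CPM. The groups overlapped: OFBI replicate 2 stood above all other libraries, while the other OFBI libraries lay within the range of the Naive ones. The means were 3282 ± 1043 and 2430 ± 429 CPM (SD, n = 3 each). The difference, 0.43 on the log2 scale (SE 0.24), had a 95% interval of -0.14 to 1.01 and did not pass the test (edgeR adjusted p = 0.268). That interval holds both no difference and a rise of 2.01-fold. Markers of lacrimal and salivary gland, where Aqp5 is also abundant, were near 0, with 6 of the 7 present at 0 in all OFBI libraries and a summed level of 0 to 5.44 CPM after OFBI and 1.42 to 2.13 CPM in Naive corneas.

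Aqp1, the water channel of keratocytes and corneal endothelium and also of red cells and capillaries (chromosome 6, 55336432 to 55348555, plus strand), was counted 301, 331 and 105 times after OFBI and 8401, 8035 and 8031 times in Naive corneas. Its level was 93.0, 106 and 98.2 CPM after OFBI and 166, 173 and 177 CPM in Naive corneas. The groups stood well apart and each was tight, at 99.1 ± 6.50 and 172 ± 5.58 CPM (SD, n = 3 each). The log2 fold change was -0.80 with an SE of 0.13 and a 95% interval of -1.11 to -0.49 (edgeR adjusted p = 0.0147). Together the OFBI libraries held 184 fragments of Aqp1, where 319 would be present at the Naive level, a ratio of 0.577 with an exact 95% Poisson interval of 0.495 to 0.668 for counting error only. The call was lost without Naive replicate 1, 2 or 3 (edgeR adjusted p = 0.0694, 0.102 and 0.0872). It was also lost after a trend with GC content and length was removed (log2 fold change -0.52, edgeR adjusted p = 0.207). The median over all genes tested moved from -0.20 to 0.18 in that fit. Relative to this median, Aqp1 went from -0.60 to -0.70. Against a minimum fold of 1.5 it was not called (edgeR adjusted p = 0.140).

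Among markers of the cells that carry Aqp1, some were lower after OFBI and some higher. Of 9 tested corneal endothelium markers, 3 were called lower (Slc4a11, Col8a1 and Car3) and 0 higher, with a median log2 fold change of -0.68 and a summed level of 947 to 1072 CPM after OFBI beside 1137 to 1301 CPM in Naive corneas. All 9 had counts in OFBI libraries. The sum was led by Prdx6 and Alcam, neither of them called. They stood at 350 and 266 CPM after OFBI and at 422 and 249 CPM in Naive corneas. Of 10 keratocyte markers, 3 were lower (the proteoglycan gene Dcn, Ptgds and Chst5) and 2 higher (Col5a2 and Thy1), with a median of -0.91, and the summed level was 449 to 541 CPM after OFBI and 513 to 538 CPM in Naive corneas. Of 5 tested red-cell genes, 1 was lower (Hba-a1), with a median of -1.745. The summed level of the 8 listed was 13.1 to 27.5 CPM after OFBI and 61.5 to 76.4 CPM in Naive corneas. Of 10 markers of vascular endothelium, 1 was lower (Tek, at 0 in all OFBI libraries), with a median of 0.16. Tek stood at 1.38 CPM in Naive corneas, under 1.62 CPM, the level of 3 fragments over the OFBI group. The sum of the 10 was 55.2 to 82.9 CPM after OFBI and 47.1 to 55.3 CPM in Naive corneas. The part of these cells in the fall of Aqp1 was not tested.

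**Figure D1:**
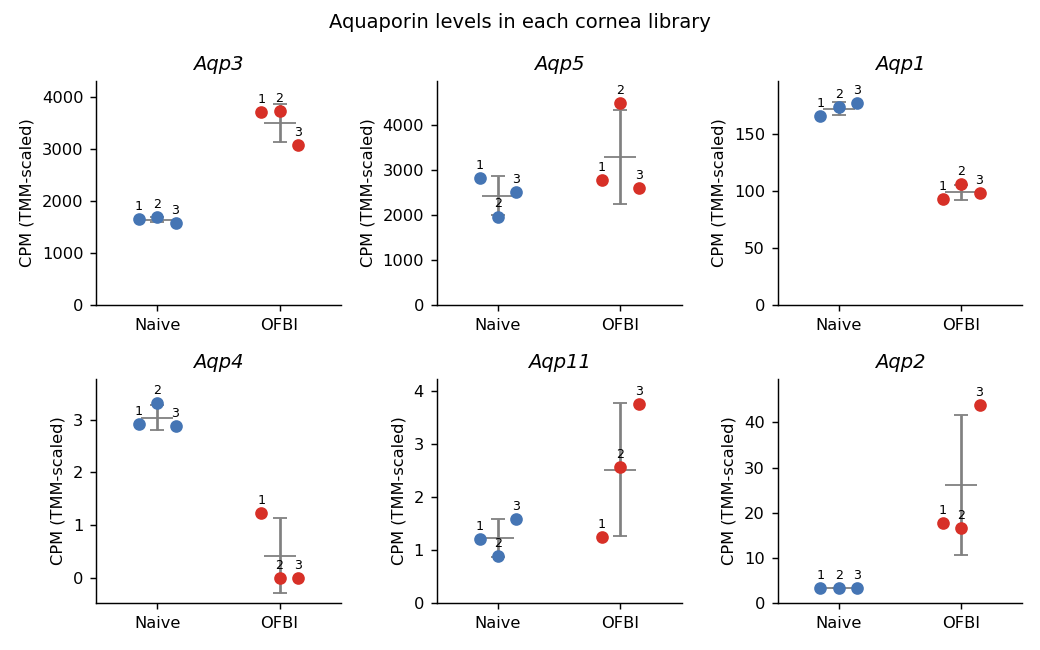
Level of 6 aquaporins in each library, in CPM scaled by the TMM method, with Naive in blue and OFBI in red. Points are libraries numbered by replicate, and grey marks are the mean ± SD of 3. Aqp3 is higher and Aqp1 lower in every OFBI library, Aqp5 overlaps between the groups, and the OFBI points of Aqp4 and Aqp11 rest on 0 to 2 fragments each.

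Aqp4, the astrocyte channel (chromosome 18, 15389496 to 15410982, minus strand), had 4, 0 and 0 counts after OFBI and 148, 154 and 131 in Naive corneas. Its Naive level was low and even, at 3.04 ± 0.241 CPM (SD, n = 3), and OFBI replicate 1 stood at 1.24 CPM. At 4 counts a fragment this is 1 fragment in OFBI libraries, where 5.63 would be present at the Naive level. The ratio of 0.178 has an exact 95% Poisson interval of 0.00445 to 1.01, which covers counting error only. The fitted difference, -2.57 on the log2 scale (SE 1.01), did not pass the test (edgeR adjusted p = 0.127), although limma-voom called it (adjusted p = 0.0374) and edgeR did so without OFBI replicate 1 (adjusted p = 0.0317), where the remaining OFBI libraries are at 0. Of 8 markers of astrocytes and Mueller glia, the group with which Aqp4 is classed, 1 was called lower, Gfap, at 0 in all OFBI libraries and at 5.26 ± 0.121 CPM in Naive ones (SD, n = 3). The summed level of the list, most of it from genes that other cells use as well, such as Glul, was 1559 to 2060 CPM after OFBI and 1300 to 1647 CPM in Naive corneas. The markers used for the ciliary body, another home of Aqp4, and for the iris are mostly genes of pigment cells. They summed to 28.1 to 137 CPM after OFBI and 184 to 199 CPM in Naive corneas. Tyr, Slc45a2 and Opn4 were at 0 in all OFBI libraries, and 2 of 8 tested were called lower (Tyr and Slc45a2). Skeletal muscle, where Aqp4 also occurs, had 8 tested markers with 1 higher (Myh2) and 1 lower (Myh4), and they summed to 179 to 222 CPM after OFBI and 223 to 231 CPM in Naive corneas. Gfap, Tyr and Slc45a2 passed the filter on low counts by their Naive counts alone. Slc45a2, at 2.24 CPM in Naive corneas, was not far above 1.62 CPM, the level of 3 fragments over the OFBI group. Whether the presence of glia, ciliary body, iris or muscle in the pools bears on Aqp4 was not tested.

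Aqp11, the intracellular channel without which mice develop polycystic kidneys (chromosome 7, 97724006 to 97738289, minus strand), had 4, 8 and 4 counts after OFBI and 61, 41 and 72 in Naive corneas. That is 1.24, 2.56 and 3.74 CPM beside 1.21, 0.884 and 1.59 CPM, with OFBI replicate 1 inside the Naive range. The 4 OFBI fragments stood beside 2.30 that the Naive level would give, a ratio of 1.74 with an exact 95% Poisson interval of 0.455 to 4.79 for counting error only. The fitted difference, 0.94 on the log2 scale (SE 0.59, edgeR adjusted p = 0.318), had a 95% interval of -0.44 to 2.32. That interval holds both no difference and a rise, and no difference of Aqp11 was detected.

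Ranked per kilobase of exon, the 5 members fell into an abundant pair, a middle gene and a trace group. In Naive corneas Aqp5 stood at 935 ± 165 and Aqp3 at 899 ± 30.2 CPM per kb (SD, n = 3), a ratio of 1.04 with overlapping values. Aqp1 followed at 65.5 ± 2.13 CPM per kb, with Aqp3 13.7 times above it, and then Aqp4 at 0.488 and Aqp11 at 0.130 CPM per kb. Each of these lower steps was wider than the spread of the libraries. After OFBI, Aqp3 led with 1915 ± 201 and Aqp5 followed with 1263 ± 401 CPM per kb. Aqp3 was the higher of the pair in 3 of 3 OFBI libraries, at 1.52 times on the means, but in 1 of 3 Naive ones, and the ranges of the pair still overlapped after OFBI. Aqp1 came next at 37.7 ± 2.48 CPM per kb, with Aqp5 33.5 times above it. Aqp11 at 0.267 and Aqp4 at 0.0661 CPM per kb changed places but overlapped. The gap within the top pair, though not its order, rests on which transcripts are counted, since the exons of Aqp5 add up to 2.599 kb over all its annotated transcripts and its longest transcript has 1.797 kb. Per longest transcript, Aqp5 stood 1.45 times above Aqp3 in Naive corneas with no overlap, and Aqp3 1.09 times above Aqp5 after OFBI, higher in 2 of 3 libraries.

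**Figure D2:**
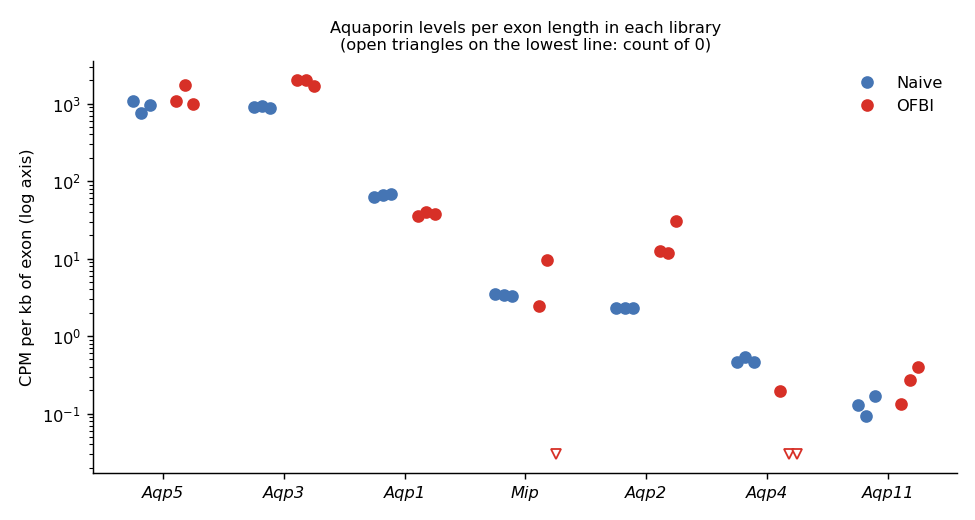
Level of aquaporins in CPM per kb of exon on a log axis, with each point a library, Naive in blue and OFBI in red, and open triangles for a count of 0. Aqp5 and Aqp3 lie together at the top, Aqp1 lies 13.7 times below Aqp3 in Naive corneas, and the remaining genes lie lower still.

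Ratios within a library do not depend on how libraries are scaled to each other. The ratio of Aqp3 to Aqp1 counts was 39.8, 35.1 and 31.3 after OFBI and 9.96, 9.77 and 8.95 in Naive corneas, 35.4 ± 4.26 and 9.56 ± 0.535 on average (SD, n = 3). The shift of 1.88 on the log2 scale, or 3.69-fold, separated the groups completely. This separation follows from the levels of Aqp3 and Aqp1, each free of overlap and in opposite directions, and is no further test of them. With 3 libraries against 3, an exact permutation test cannot go below p = 0.1, and this ratio reached it (two-sided, adjusted p = 0.2 over the 6 pairs of members with counts in all libraries). With each library left out in turn the shift was 1.80 to 1.97, and the difference of the fitted log2 fold changes was 2.04 with the GC and length trend removed. In the fit with the GC and length trend removed, in which Aqp1 was not called, Aqp3 still had a log2 fold change of 1.52 (edgeR adjusted p = 0.0344). Relative to the median of all genes tested, Aqp3 was at 1.34 in that fit and at 1.29 in the main one.

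The ratio of Aqp5 to Aqp1 counts was also higher in every OFBI library, at 29.8, 42.3 and 26.4 beside 17.0, 11.4 and 14.1. Its shift was 1.20 on the log2 scale, or 2.30-fold (two-sided exact permutation p = 0.1, adjusted p = 0.2). The ratio of Aqp3 to Aqp5, at 1.34, 0.831 and 1.19 after OFBI and 0.587, 0.860 and 0.633 in Naive corneas, overlapped between the groups. Here the shift of 0.68 did not set the groups apart (exact permutation p = 0.2, adjusted p = 0.3), so a different response of both epithelial channels was not shown. The difference of their fitted log2 fold changes was 0.66 with all libraries and 1.72 with the GC and length trend removed, which was not tested. The ratio of Aqp1 to Aqp11 was lower in every OFBI library, by 1.73 on the log2 scale (exact permutation p = 0.1, adjusted p = 0.2), but rests on the few fragments of Aqp11. The other pairs with Aqp11 overlapped (exact permutation p = 0.9 for Aqp3 and 0.6 for Aqp5).

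Seen as shares of the summed length-scaled counts of the 5 members, Aqp3 made up 64.8%, 53.6% and 61.9% after OFBI and 44.0%, 52.9% and 45.7% in Naive corneas. The ranges just failed to meet, and the mean share was 12.5 percentage points higher after OFBI (two-sided exact permutation p = 0.1, adjusted p = 0.167 over 5 shares). Aqp5 took 38.7% ± 5.90 after OFBI and 49.0% ± 5.02 in Naive corneas, with overlap (p = 0.2 by the same exact test). Aqp1 took 1.19% ± 0.165 and 3.47% ± 0.353, with no overlap (exact permutation p = 0.1). The summed CPM of the 5 genes was 5771 to 8314 after OFBI and 3840 to 4641 in Naive corneas.

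**Figure D3:**
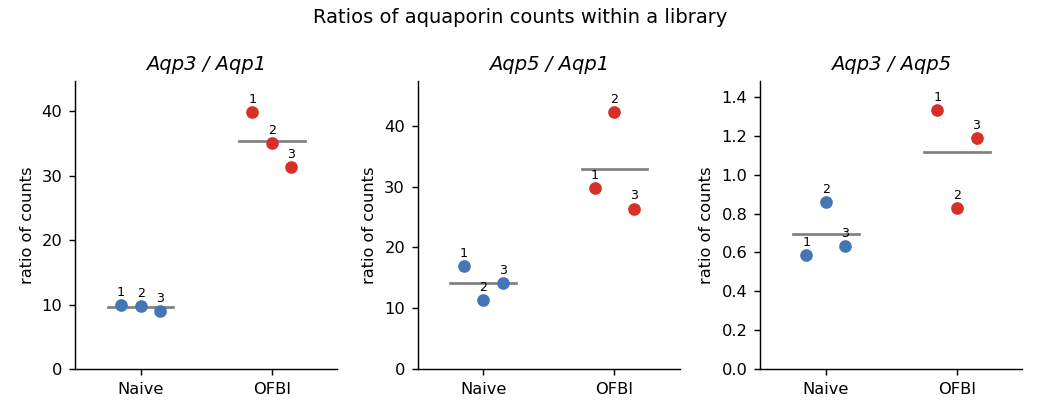
Ratio of counts of a pair of aquaporins in each library, with Naive in blue, OFBI in red and the mean as a line. The ratio of Aqp3 to Aqp1 lies at 31.3 to 39.8 after OFBI and 8.95 to 9.96 in Naive corneas, Aqp5 to Aqp1 is also apart, and Aqp3 to Aqp5 overlaps.

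Each aquaporin was next set beside the mean log2 level of marker genes in the same library. Against the 15 epithelial markers, Aqp3 was higher after OFBI by 0.76 on the log2 scale with no overlap (two-sided exact permutation p = 0.1, the smallest possible, adjusted p = 0.15 over 15 tests). That mean includes markers that fell or did not pass, and Krt12 (log2 fold change 1.36), Klf5 (1.53), Krt5 (1.76) and Krt14 (1.81) had larger fold changes than Aqp3. Aqp5 did not stand apart from the epithelial markers, with a difference of 0.074 and overlapping groups (exact permutation p = 0.8). Against the keratocyte and the endothelial markers, Aqp3 was higher by 2.29 and 2.20 and Aqp5 by 1.60 and 1.52, in every library (exact permutation p = 0.1 for each). These differences include a fall of the markers, with median log2 fold changes of -0.91 and -0.68. Some markers had few counts after OFBI, such as Chst5 (15, 8 and 4) and Slc4a11 (79, 56 and 4). Aqp11, on few fragments, was higher by 2.10 and 2.01 (exact permutation p = 0.1 for each). Aqp4 differed by -2.74 with overlap and by -2.82 without (exact permutation p = 0.2 and 0.1).

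Aqp1 gave the reverse picture of Aqp3 against the epithelial markers. It was lower against the epithelial markers by 1.13 on the log2 scale in every OFBI library (exact permutation p = 0.1, adjusted p = 0.15). Against the markers of the cells known to hold it, however, the groups overlapped. The difference was 0.40 against keratocyte markers and 0.31 against endothelial markers (exact permutation p = 0.6 and 0.4), and the SD of the log2 values over 3 libraries was 0.75 and 0.62 after OFBI beside 0.052 and 0.035 in Naive corneas. With 3 libraries against 3 this test could not have passed 0.05 for a change of any size. Without OFBI replicate 3 the differences were 0.0053 and 0.035, without OFBI replicate 2 that against keratocyte markers was 0.75, and without OFBI replicate 1 that against endothelial markers was 0.65. A prior count of 0.5 moved the keratocyte value to 0.61.

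**Figure D4:**
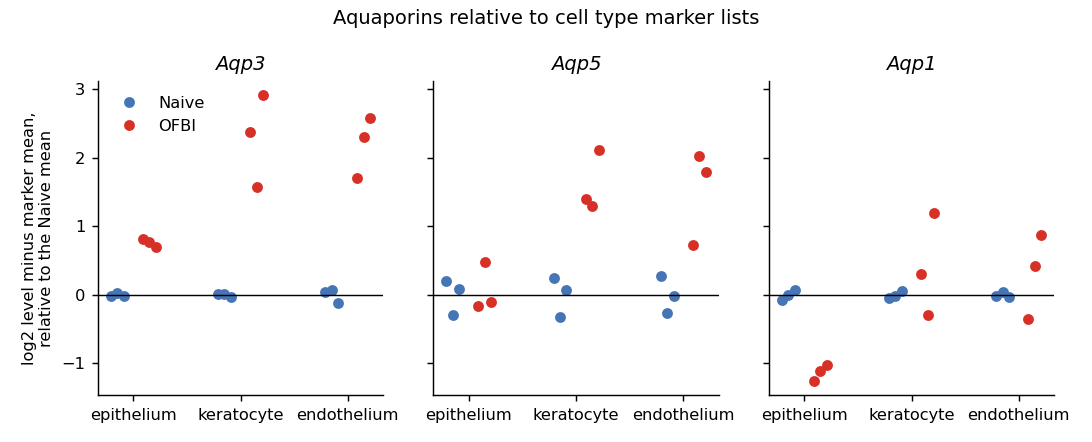
Log2 level of Aqp3, Aqp5 and Aqp1 minus the mean log2 level of the markers of 3 corneal cell types in the same library, set so that the Naive mean is 0. Points are libraries, Naive in blue and OFBI in red. Aqp3 is above 0 against all lists after OFBI, Aqp5 overlaps against epithelium, and Aqp1 is below 0 against epithelium and overlaps against keratocytes and endothelium.

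Of the 7 other members of the family, 5 (Aqp6, Aqp7, Aqp8, Aqp9 and Aqp12) were at 0 in all OFBI libraries and had 0 to 8 counts in any Naive library. The lens channel Mip had 17, 64 and 0 counts after OFBI and 374, 342 and 319 in Naive corneas and was not called (log2 fold change 0.33, SE 0.96, edgeR adjusted p = 0.846). Of 8 tested lens genes, 2 were higher (Cryaa and Crybb2) and 0 lower, and those other than Mip summed to 546 to 799 CPM after OFBI and 227 to 252 CPM in Naive corneas. The exception was Aqp2, the vasopressin-regulated channel of the kidney collecting duct. Aqp2 had 57, 52 and 47 counts after OFBI and 164, 153 and 147 in Naive corneas, or 17.6, 16.6 and 44.0 CPM beside 3.24, 3.30 and 3.24 CPM. The groups were far apart, at a log2 fold change of 2.96 (SE 0.51, 95% interval 1.77 to 4.16, edgeR adjusted p = 0.0156), a fold of 7.80. The call was lost without Naive replicate 1, 2 or 3 (edgeR adjusted p = 0.0758, 0.0844 and 0.0800).

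The counts of Aqp2 differed little between OFBI libraries although OFBI replicate 3 had 1173472 counts in all and the others 3410476 and 3355422. At 4 counts a fragment, 39 fragments of Aqp2 were found in the OFBI libraries, where 6.05 would be present at the Naive level. Aqp2 lies next to Aqp5 on the same strand of chromosome 15, ending 6235 bp before Aqp5 begins, and its counts were 0.371% to 1.70% of those of Aqp5 after OFBI and 0.115% to 0.168% in Naive corneas. Other genes of kidney tubule were scarce. Umod, Slc12a1, Slc12a3 and Avpr2, the vasopressin receptor, were at 0 in all OFBI libraries, and the summed level of the 8 listed genes other than Aqp2 was 43.3, 1.28 and 7.48 CPM after OFBI and 3.82 to 5.82 CPM in Naive corneas. Slc34a1, the phosphate carrier of the proximal tubule, was called higher with 12, 4 and 4 counts after OFBI and 0 in Naive corneas (edgeR adjusted p = 0.00964). With about 4 counts to a fragment, this call rests on few fragments. Slc34a1 passed the filter on low counts by its OFBI counts alone, where 1 fragment is worth 1.24 to 3.74 CPM. Kap, a proximal tubule gene, had 120 counts in OFBI replicate 1, 8 in Naive replicate 3 and 0 in the other libraries. Markers of hepatocytes also moved, with 5 of 7 tested called higher and a summed level of 168 to 1138 CPM after OFBI and 31.7 to 43.5 CPM in Naive corneas. The part of RNA from other tissues in Aqp2 was not tested.

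**Figure D5:**
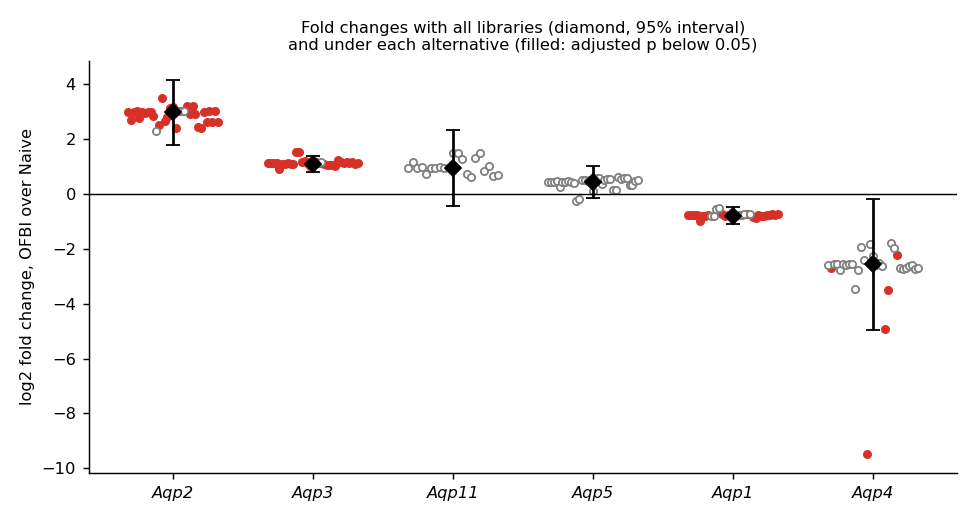
Log2 fold change of 6 aquaporins, OFBI over Naive, with the main estimate and its 95% interval as a black diamond and bar, and each alternative as a circle, filled in red where its adjusted p was below 0.05. Aqp3 stays between 0.89 and 1.52 and Aqp1 stays below 0, Aqp5 crosses 0 in the fits with the GC trend removed, and Aqp4 and Aqp11 spread widely.

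Water follows the ions that the cornea pumps, and genes of this ion and bicarbonate transport were followed as well. Of 19 tested, 1 was higher and 1 lower, with a median log2 fold change of 0.04. Over all genes tested, 8.41% were higher and 10.4% lower, with a median of -0.20. The higher was Slc4a2, an anion exchanger, at 200.4 ± 12.6 CPM after OFBI and 127 ± 5.04 CPM in Naive corneas (SD, n = 3, log2 fold change 0.65, edgeR adjusted p = 0.0211). The lower was Slc4a11, an endothelial transporter whose loss causes corneal dystrophy in humans, at 15.4 ± 10.6 and 81.1 ± 6.73 CPM (log2 fold change -2.29, edgeR adjusted p = 0.0233). The chloride carrier Slc12a2, with a log2 fold change of 0.33, did not pass (edgeR adjusted p = 0.0970).

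Of 14 tested genes that act in cell volume and osmotic stress, 0 were higher and 3 lower, with a median of -0.50. The shares over all genes tested were 8.41% higher and 10.4% lower, with a median of -0.20. Trpv4, a cation channel that opens on swelling, was at 30.5 ± 4.52 CPM after OFBI and 52.6 ± 5.16 CPM in Naive corneas (SD, n = 3, log2 fold change -0.78, edgeR adjusted p = 0.0419). Lrrc8b, a subunit of the volume-regulated anion channel, had a log2 fold change of -0.87 and Hspa4l, a stress chaperone, one of -1.84 (edgeR adjusted p = 0.0420 and 0.0411). Of 9 tested genes for proteins that anchor or regulate aquaporins, 1 was higher, Agrn, a basement membrane protein that takes part in placing Aqp4 in astrocytes, at 566 ± 71.6 and 380 ± 27.1 CPM (log2 fold change 0.57, edgeR adjusted p = 0.0338), and 0 were lower, with a median of -0.24.

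The genes whose profile over the 6 libraries was most like that of each member were sought among the 8928 genes that averaged 10 CPM or more, by the root mean square difference of centred log2 CPM. For Aqp3 they were Nkiras2 (0.0628), Lypla2 (0.0693) and Ctdnep1 (0.0761), and for Aqp1 they were Tor1aip1 (0.0375), Isca1 (0.0459) and Eif3c (0.0482). For Aqp5 the nearest were Tubb2b (0.105), Atp6ap1 (0.130) and Rragd (0.133). Krt12 was in place 344 for Aqp3, at 0.253, Aqp5 was in place 1624 for Aqp3, at 0.433, and Aqp3 was in place 7261 for Aqp1, at 0.949. The profiles of Aqp4 and Aqp11 were set by a few fragments. With 6 libraries in 2 groups, likeness mostly reflects a like group difference and a like small scatter.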

How the data were processed

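Per the labels' protocols, total RNA of pooled corneas was isolated with RNeasy columns and made into stranded libraries. Per the submitters' processing notes, the build was GRCm38 and FastQC, HISAT2, StringTie and DESeq2 were among the tools, listed without versions or roles. The authors deposited 1 table of estimated counts per library, as whole numbers not scaled for depth, and per the values about 4 counts stand for 1 fragment. The 64 rows that shared 31 symbols were summed. Which annotation and strand setting were used, and how multi-mapping reads were treated, is not given in the sources used here. Exons of the 5 members overlap no other gene in GENCODE M21, from which lengths and coordinates were taken and which may not be the release used.

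The test of all genes that passed filterByExpr was that of edgeR 4.0.16, run under R 4.3.3 (TMM scaling, quasi-likelihood fit, group as the only term, two-sided, Benjamini-Hochberg adjustment over all 13941 genes, threshold 0.05). CPM values are TMM-scaled and were computed from the deposited estimated counts. Ratios, shares and levels relative to markers were compared by two-sided exact permutation tests over libraries, whose smallest p is 0.1. The fit was tested in 3 simulations of 13941 genes, with 200 genes changed in each. It picked up 6% of the genes changed 2-fold and 62.3% of those changed 4-fold. Wrong calls came to 5.53% of all calls. Most simulated 2-fold changes were thus missed, so a gene left uncalled is not thereby shown to be unchanged. The simulations changed fewer genes than the 2619 called in the data. Benjamini-Hochberg adjustment is stricter where fewer genes differ, so these rates need not hold in the data. The members, the gene lists and the alternatives were chosen with earlier results of these data known. Named genes were the members, other aquaporins with counts, the 3 tested genes with the smallest p of each pathway list, the 2 most abundant of each cell type list and the 3 nearest profiles of each member, of which those that bear on a result are given. Others, such as the marker genes called and those at 0, were named after their values were seen. Replicates of a group differed beyond sampling noise, and all count as separate samples. Alternatives were DESeq2 1.42.0, limma-voom (limma 3.58.1), other scalings, filters, prior counts and thresholds, thinning, counts divided by 4, a GC and length trend, a replicate block and leaving out each library. Leaving out libraries under DESeq2 and limma-voom was added after seeing the data.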

Additional observations from a re-analysis of the deposited data

How the results depend on the processing

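The number of genes called higher, 1173, was 1854 with DESeq2, 462 with a minimum fold of 1.5 and 191 at a threshold of 0.01. The number called lower, 1446, was 910 with no filter, 437 with that minimum fold, 582 with the GC and length trend removed, 564 with the Naive libraries thinned to OFBI replicate 1, 449 with all thinned to OFBI replicate 3 and 31 at a threshold of 0.01. Leaving out each library in turn gave 0 to 1611 higher and 0 to 2065 lower by edgeR. Without Naive replicate 2 edgeR called 0 genes, with 2441 at an unadjusted p below 0.05, where DESeq2 called 1010 higher and 479 lower and limma-voom 1037 and 529. Without OFBI replicate 1, 2 or 3 DESeq2 gave 2020, 2258 and 2419 higher and 2492, 2891 and 2748 lower, and limma-voom gave 622 higher without OFBI replicate 1. Without Naive replicate 1 or 3 the genes lower were 604 and 539 by DESeq2 and 776 and 691 by limma-voom.

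The replicate numbers were not taken to pair libraries, since deviations from the group means of same-numbered libraries correlated at -0.0027, -0.0175 and 0.00783. With the replicate block 540 genes were higher and 253 lower, and with the block and the GC trend removed 468 and 35. Aqp1 was not called with the block (-0.80, adjusted p = 0.0582), nor with the block and GC trend (-0.55, adjusted p = 0.327). In the latter fit Aqp2 was also not called (2.30, adjusted p = 0.107). The block changed no other call of the 5 members or Aqp2.

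Aqp3 remained called in all fits but edgeR without Naive replicate 2, and its fold change was 1.00 to 1.17 with a library left out. Aqp1 was not called with a minimum fold of 1.5 (-0.80, adjusted p = 0.140), with the GC trend removed (-0.52) or at a threshold of 0.01, and ranged from -0.89 to -0.74 with a library left out. Aqp1 was kept by DESeq2 without any library and lost by limma-voom only without OFBI replicate 1 (-0.74, adjusted p = 0.0865). Aqp5 turned negative with the GC trend removed (-0.19) and with the block besides (-0.25), never past the threshold, and ranged from 0.10 to 0.59 with a library left out. Aqp4 was called by limma-voom (-2.69), by DESeq2 without OFBI replicate 1 (-4.91) or 3 (-2.25) and by limma-voom without OFBI replicate 1 (-3.51), and ranged from -9.48 to -1.82 with a library left out by edgeR. Aqp11 ranged from 0.62 to 1.25 with an OFBI library left out by edgeR and up to 1.48 in other fits, never past the threshold, and could not be tested without a Naive replicate, thinned or divided by 4, and Aqp4 could not when thinned. Differences that turned sign with a library left out were the share of Aqp11 (-0.00115 to 0.00406 percentage points), the log2 ratio of Aqp3 to Aqp11 (-0.33 to 0.60, -0.083 without Naive replicate 3) and Aqp5 relative to epithelial markers (-0.13 to 0.19, -0.074 without Naive replicate 2). Without Naive replicate 1, Aqp3 took rank 1 and Aqp5 rank 2 in Naive corneas. Relative to the median of all genes, which moved from -0.20 to -0.40 with library size as the only scaling, Aqp3 stayed at 1.22 to 1.48 and Aqp1 at -0.76 to -0.37 over 35 settings, of which a threshold of 0.01 and a minimum fold of 1.5 repeat the main values, and Aqp5 at -0.37 to 0.91. Apart from those named, the causes were not tested. The depth of the OFBI libraries limits genes under about 1.62 CPM, the level of 3 fragments over that group.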
